A study of Mus musculus with 9 samples.

Results

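The miR-25 and miR-92 seed family is the group of mature microRNAs (miRNAs) that share the seed AUUGCAC at bases 2 to 8, counted from the 5′ end. Its rows were chosen by name, as those of the table beginning with miR-25, miR-32, miR-92a, miR-92b or miR-363, and 4 of the 358 miRNAs of the series met this rule, namely miR-25-3p, miR-92a-3p, miR-92b-3p and miR-32-5p. A value from each of the 9 libraries was present for all 4. Of the 358 rows, 299 (83.5%) had a mature sequence under their name in RefSeq, and 0 rows outside the family carried the same seed. Another pair of mature miRNAs with this seed, miR-363-3p and miR-367-3p, had no row among the 358.

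The libraries were made from epididymosomes, the small membrane vesicles that are released into the lumen of the epididymis and meet the maturing spermatozoa there. The vesicles were purified on a density gradient from 3 successive segments of the duct, caput, corpus and then cauda, of male Swiss mice aged 8 weeks. Each of the 3 libraries per segment was prepared from RNA pooled over several animals. The replicates were thus separate pools and not single mice, and p-values set differences between segments against the spread between these pools. The levels are those of bulk vesicle preparations, in which fewer vesicles of a kind and less of a miRNA per vesicle cannot be told apart.

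A miRNA guides the silencing complex to messenger RNAs, and the seed is the part of the guide that pairs first with its target. Members of 1 seed family are therefore predicted to share many targets, and for miR-25, miR-32 and miR-92a these are known to include the pro-apoptotic gene Bcl2l11 (Bim). In the epididymis, vesicle miRNAs are studied because they can be passed to spermatozoa during their transit.

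The sequences of the 4 family members are given below as RefSeq holds them for the mouse assembly GRCm38.p6, to show what they share and where they differ. The seed is in capitals.

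miR-25-3p: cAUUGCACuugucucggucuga
miR-92a-3p: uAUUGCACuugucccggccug
miR-92b-3p: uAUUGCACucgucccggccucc
miR-32-5p: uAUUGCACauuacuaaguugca

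Downstream of the seed the family fell into a closely related trio and 1 more distant member. Over their 21 shared positions miR-92a-3p and miR-92b-3p had 19 bases in common and differed by U10C and G21C, written with the miR-92a-3p base first. The same count was 18 between miR-92a-3p and miR-25-3p, which differed by U1C, C14U and C18U. It was only 11 between miR-92a-3p and miR-32-5p, with all 10 differences after the seed. Guanine and cytosine made up 63.6% of miR-92b-3p, 57.1% of miR-92a-3p, 50% of miR-25-3p and 31.8% of miR-32-5p. How the counting treated mismatched reads is not given in the sources used here, and the values of miR-92a-3p and miR-92b-3p are uncertain to the extent that their reads were exchanged. The mature lengths were 21 bases for miR-92a-3p and 22 for the others. Whether the library preparation captured the members equally was not tested, so their order and shares below are those of reads.

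The members arise from 5 hairpins on 5 chromosomes (GRCm38, GENCODE gene models). Mir25 lies at chr5:138165321-138165404 on the minus strand, inside the replication licensing gene Mcm7, where it overlaps an exon of a noncoding transcript but no exon of a coding one. Mir93 and Mir106b lie beside it in the same gene. Mir32 (chr4:56895229-56895298, minus strand) lies in an intron of Tmem245. Mir92b (chr3:89227116-89227198, minus strand) lies between genes, 28 bases from Mtx1 and 1859 bases from Muc1. The remaining 2 hairpins both release miR-92a-3p, namely Mir92-1 (chr14:115044427-115044506, plus strand), in an exon of the long noncoding host RNA Mir17hg, and Mir92-2 (chrX:52741838-52741928, minus strand), which overlaps no gene. These 2 hairpins are shown because they differ around an identical guide, here in capitals, so that the deposited level of miR-92a-3p cannot be divided between them.

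Mir92-1: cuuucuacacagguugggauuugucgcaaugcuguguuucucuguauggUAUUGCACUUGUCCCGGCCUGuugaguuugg
Mir92-2: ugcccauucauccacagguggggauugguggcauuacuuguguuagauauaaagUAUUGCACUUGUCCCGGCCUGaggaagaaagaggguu

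Levels are given in the deposited unit, CPM, for which the authors scaled the reads on each miRNA to a common total of miRNA reads per library. The libraries held between 1548581 and 11306605 such reads, fewest in corpus replicate 3, and 10 CPM corresponded to between 15.5 and 113 reads. By the scaling factors of TMM, a normalisation that trims the most divergent miRNAs, caput replicate 2 stood apart at 0.478, against 0.753 to 1.29 in the others. Segments were compared with limma on log2(CPM + 1), and a miRNA was called differentially accumulated when its fold change reached 2 at an adjusted p under 0.05. Fold changes are on the log2(CPM + 1) scale and slightly understate those of low miRNAs. The median change of all miRNAs tested was 0.47 on the log2 scale from caput to corpus, 0.18 from corpus to cauda and 0.81 from caput to cauda, and -0.087, 0.079 and 0.13 after TMM normalisation. With TMM the miRNAs called higher and lower were 42 and 49 in place of 61 and 11 from caput to corpus, 56 and 34 in place of 48 and 17 from corpus to cauda, and 87 and 71 in place of 135 and 36 from caput to cauda.

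The 4 family members were not accumulated alike along the epididymis. miR-25-3p rose from caput to cauda, miR-92a-3p was highest in the corpus, miR-92b-3p was highest in the caput, and miR-32-5p was not differentially accumulated in any comparison with the deposited scaling and all 9 libraries. From caput to corpus 2 of the 4 members were differentially accumulated, against 22.4% of the 321 miRNAs tested. From corpus to cauda it was 1 of 4, against 19% of 342, and from caput to cauda 2 of 4, against 49% of 349. After TMM normalisation it was 2 of 4 in each comparison, against 28.3%, 26.3% and 45.3% of all. The libraries of both segments did not overlap for 3, 3 and 2 of the members in the same order, against 34.9%, 46.2% and 54.2% of all miRNAs tested. All 4 members were among the miRNAs tested in each comparison. The median change of the 4 members was 0.96 from caput to corpus, -0.78 from corpus to cauda and -0.037 from caput to cauda on the log2 scale, and 0.40, -0.87 and -0.70 after TMM normalisation.

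**Figure D1:**
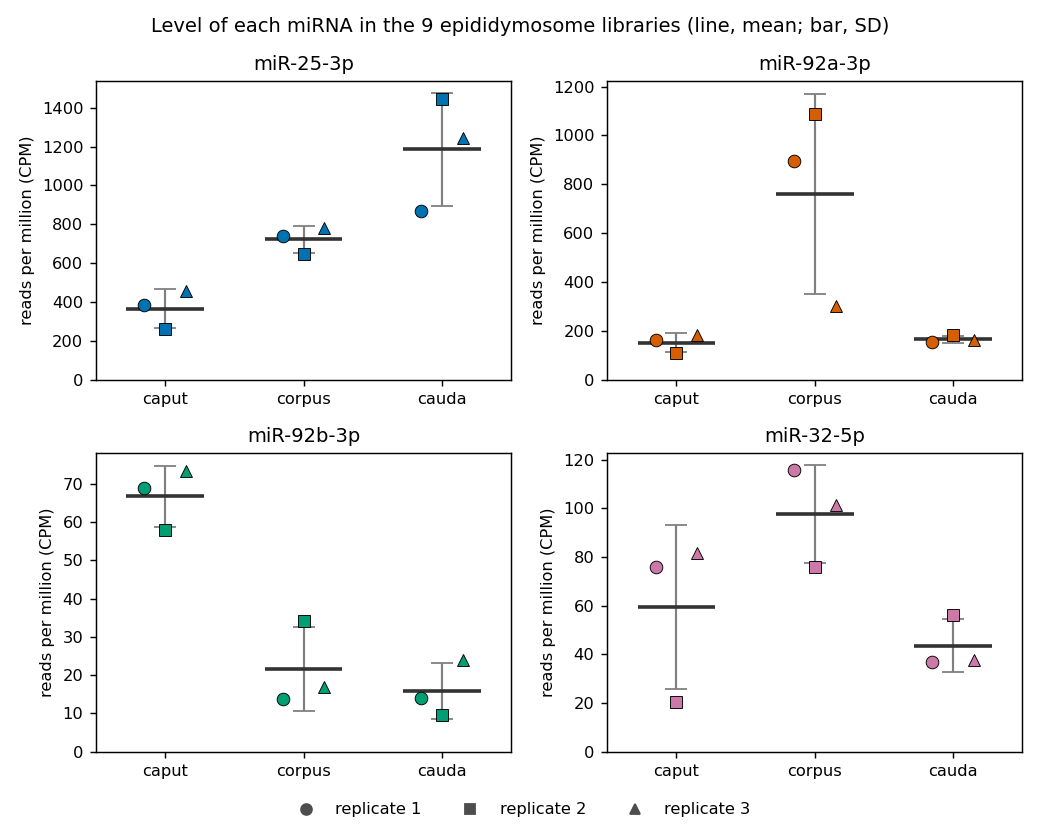
Level of each family member in CPM (vertical axis, linear, with its own range in each panel) in the 3 libraries of each segment (horizontal axis). Points are libraries with the shape giving the replicate, horizontal lines are means and bars are SD (n = 3); miR-25-3p means go from 366 to 723 to 1186 CPM, miR-92a-3p reaches 1086 CPM in corpus replicate 2 but 302 CPM in corpus replicate 3, and the 3 caput libraries of miR-92b-3p lie above all others.

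miR-92a-3p is the best known member, a product of the miR-17 to miR-92a-1 cluster (also called oncomiR-1). Its level was 164, 107 and 182 CPM in caput libraries, 895, 1086 and 302 CPM in corpus libraries and 152, 181 and 164 CPM in cauda libraries. All corpus libraries were thus above all others, but corpus replicate 3 lay much closer to the caput and cauda than to the other two. That library was the shallowest, and its level rested on 467 reads (exact Poisson 95% interval of 275 to 330 CPM, counting error only). The means were 151 ± 39.0, 761 ± 409 and 166 ± 14.5 CPM (SD, n = 3 each), and placed miR-92a-3p at ranks 107, 56 and 121 of all rows.

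From caput to corpus miR-92a-3p rose 4.48-fold (log2 change of 2.16, SE 0.47, limma adjusted p = 0.0041), or 1.70 beyond the median of all miRNAs. From corpus to cauda it fell by 2.0 (SE 0.47, limma adjusted p = 0.0067), which is 4.0-fold lower and 2.18 below the median. Of all miRNAs tested 19% were called higher from caput to corpus and 4.97% lower from corpus to cauda. Caput and cauda overlapped, with a change of 0.16 (SE 0.47, limma adjusted p = 0.79) and a 95% interval of the fold from 0.564 to 2.23. This small difference turned to -0.51 with TMM normalisation and to -0.063 without caput replicate 2. The fall from corpus to cauda was no longer called without corpus replicate 2 (-1.64, limma adjusted p = 0.058), whereas the rise from caput to corpus ranged from 1.81 without that library to 2.73 without corpus replicate 3 and was called each time. The summed level of 9 rows typical of epithelium (miR-200 family, miR-141, miR-205) was also highest in the corpus, at 74022 to 85469 CPM against 21935 to 33757 in caput and 46138 to 62241 in cauda libraries, with none at 0 in any library. The sum was highest of all in corpus replicate 3, the corpus library with the least miR-92a-3p. Most of the sum was a single row, miR-141-3p, with means of 17882, 65694 and 40435 CPM from caput to cauda. Of these 9 rows 2 rose from caput to corpus and 0 fell from corpus to cauda, and their part in the level of miR-92a-3p was not tested.

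miR-25-3p, processed from the Mcm7 locus together with miR-93 and miR-106b, had the highest CPM of the family in the caput and the cauda. Caput libraries held it at 383, 259 and 454 CPM, corpus libraries at 739, 648 and 781 CPM and cauda libraries at 870, 1443 and 1245 CPM. No 2 segments overlapped, and each successive segment was above the one before. The means were 366 ± 99.0, 723 ± 68.0 and 1186 ± 291 CPM (SD, n = 3 each), at ranks 71, 61 and 51.

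Only the span of the whole duct was called for miR-25-3p. From caput to cauda it rose 3.25-fold (log2 change of 1.70, SE 0.37, limma adjusted p = 0.0014), which was 0.89 above the median of all miRNAs, 38.7% of which were called higher. The 2 single steps stayed short of the threshold, with changes of 1.01 (SE 0.37, limma adjusted p = 0.057) from caput to corpus and 0.69 (SE 0.37, limma adjusted p = 0.21) from corpus to cauda. The first of these passed it without caput replicate 3 (1.19, limma adjusted p = 0.020). The rise from caput to cauda was 1.03 after TMM normalisation (limma adjusted p = 0.0034), and 1.47 without caput replicate 2 (limma adjusted p = 0.0024).

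Rows typical of several other cell types rose over the same span as miR-25-3p. All 5 red blood cell rows (miR-451a, miR-144, miR-486, of which miR-486a-5p and miR-486b-5p may share reads) rose from caput to cauda, with summed levels of 223 to 848 CPM in caput, 390 to 1106 in corpus and 3030 to 4365 in cauda libraries. So did 4 of 4 smooth muscle rows (50115 to 88995 CPM in the caput and 291676 to 354786 in the cauda), 5 of 5 striated muscle rows (55.5 to 197 and 1412 to 4166 CPM) and 18 of 18 germ cell rows (417 to 1134 and 2663 to 3447 CPM). The miR-465a, miR-465b and miR-465c rows among the germ cell rows may also share reads. That list includes miR-34c, which the authors also report in the epididymal epithelium, so it is not specific to germ cells. Of the leukocyte rows 3 of 5 rose (231 to 530 and 392 to 1601 CPM), and of the epithelial rows 1 of 9. These counts are of rows called higher with the deposited scaling, against 38.7% of the 349 miRNAs tested. The striated muscle rows miR-133a-5p and miR-208b-3p and the germ cell row miR-470-3p were at 0 in at least 1 library, and none of the others was. By immunoblot, which measures protein and not RNA, the authors detected neither haemoglobin nor a marker of cytoplasmic droplets in the epididymosome preparations. The part of these cells in the rise of miR-25-3p was not tested.

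miR-92b-3p, nearly the same in sequence as miR-92a-3p, had its highest level in the caput. Its level was 68.9, 57.9 and 73.5 CPM in caput libraries, 13.9, 34.1 and 16.8 CPM in those of the corpus and 14.0, 9.61 and 23.9 CPM in those of the cauda. The caput libraries were above all of the other 6, and corpus and cauda overlapped. The means were 66.7 ± 8.01, 21.6 ± 10.9 and 15.8 ± 7.33 CPM (SD, n = 3 each). The values outside the caput rested on few reads, 26 in corpus replicate 3 (exact Poisson 95% interval of 11.0 to 24.6 CPM) and 21 in cauda replicate 2 (5.95 to 14.7 CPM).

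miR-92b-3p fell by 1.68 on the log2 scale from caput to corpus (SE 0.47, limma adjusted p = 0.016), which is 3.21-fold lower. From caput to cauda it fell by 2.09 (SE 0.47, limma adjusted p = 0.0017), or 4.26-fold, and relative to the median of all miRNAs the changes were -2.15 and -2.90. Few miRNAs were called lower in these comparisons, 3.43% of those tested from caput to corpus and 10.3% from caput to cauda, and counted from the largest fall miR-92b-3p held rank 6 of 321 and rank 11 of 349. The step from corpus to cauda was -0.41 (SE 0.47, limma adjusted p = 0.58), with a 95% interval of -1.40 to 0.58. The fall from caput to corpus was no longer called without corpus replicate 1 (-1.43, limma adjusted p = 0.088) or without corpus replicate 3 (-1.56, limma adjusted p = 0.065).

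miR-32-5p, encoded in an intron of Tmem245 and the only member taken from the 5′ arm of its hairpin, held ranks 145, 145 and 208 of all rows from caput to cauda. Caput libraries held it at 76.1, 20.5 and 81.9 CPM, corpus libraries at 116, 76.0 and 101 CPM and cauda libraries at 37.0, 56.3 and 37.5 CPM. The corpus libraries were all above the cauda, while the caput overlapped with both, its replicate 2 being the lowest of the 9 libraries. The means were 59.5 ± 33.9, 97.7 ± 20.2 and 43.6 ± 11.0 CPM (SD, n = 3 each).

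No comparison passed the thresholds for miR-32-5p in the fit to all 9 libraries with the deposited scaling. Its change was 0.91 (SE 0.51, limma adjusted p = 0.21) from caput to corpus, -1.15 (SE 0.51, limma adjusted p = 0.12) from corpus to cauda and -0.24 (SE 0.51, limma adjusted p = 0.71) from caput to cauda. The change from corpus to cauda was called with TMM normalisation (-1.25, limma adjusted p = 0.020), with only the 6 libraries compared (limma adjusted p = 0.021) and without caput replicate 2 (limma adjusted p = 0.019). From caput to cauda the direction turned without caput replicate 1 (0.050) or caput replicate 3 (0.10).

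**Figure D2:**
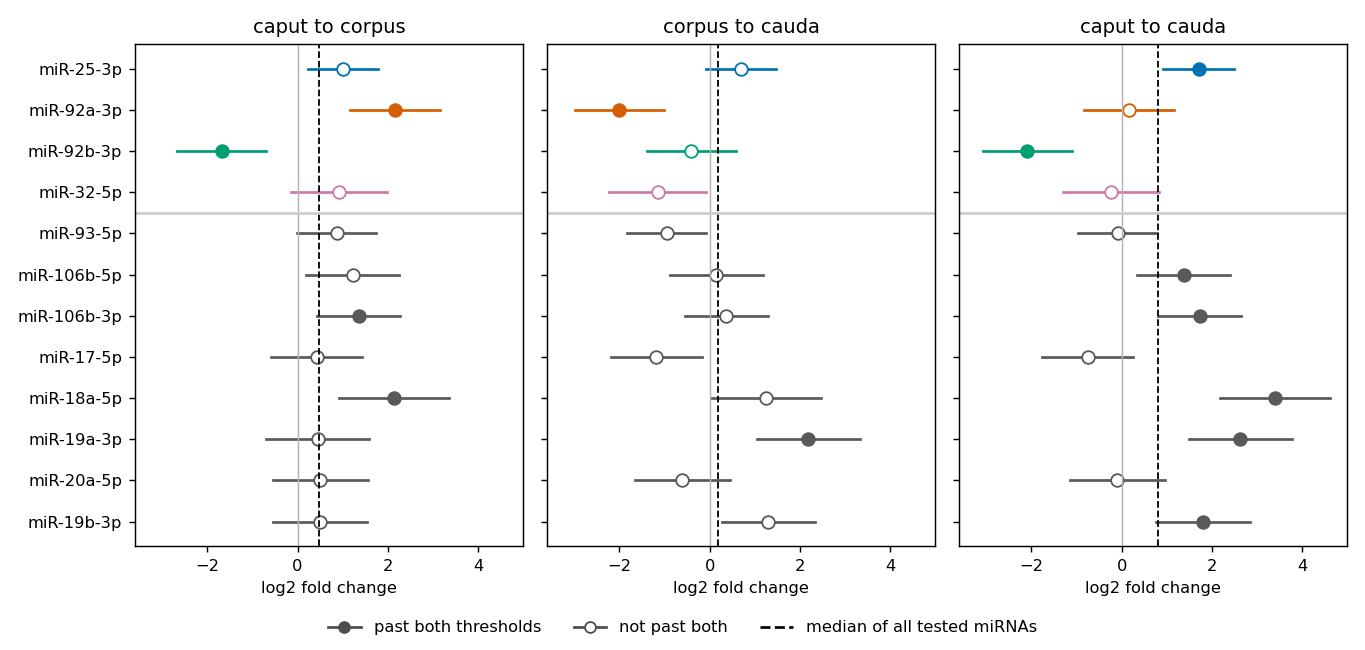
Log2 fold change on the CPM + 1 scale (horizontal axis) of the 4 family members (coloured, above the grey line) and the 8 miRNAs of their clusters (grey, below it) in the 3 comparisons. Bars are 95% intervals, filled points passed both thresholds, and the dashed line is the median of all miRNAs tested (0.47, 0.18 and 0.81); miR-92a-3p is filled at 2.16 and then at -2.0, miR-92b-3p at -1.68 and -2.09, and miR-25-3p at 1.70.

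Within a segment the order of the members also changed. In the caput the mean levels ran from miR-25-3p through miR-92a-3p and miR-92b-3p to miR-32-5p, and the last of these pairs overlapped. In the corpus miR-92a-3p and miR-25-3p overlapped, at means of 761 and 723 CPM, above miR-32-5p and miR-92b-3p. In the cauda the order was miR-25-3p, miR-92a-3p, miR-32-5p and miR-92b-3p, and the values of these 4 did not overlap. The summed level of the family was 643 ± 179 CPM in caput, 1603 ± 351 in corpus and 1411 ± 313 in cauda libraries (SD, n = 3 each).

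Of the family's reads miR-25-3p took 57.0 ± 1.46% in caput, 47.4 ± 15.7% in corpus and 83.7 ± 2.32% in cauda libraries (SD, n = 3 each). The share of miR-92a-3p was 23.6 ± 0.576%, 44.9 ± 17.6% and 12% ± 1.9. The share of miR-92b-3p was 10.7 ± 1.99%, 1.34 ± 0.532% and 1.17 ± 0.542% in the same order. The wide spread of the corpus came from replicate 3, in which miR-92a-3p made up 25.1% of the family, against 50.7% and 58.9% in replicates 1 and 2.

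**Figure D3:**
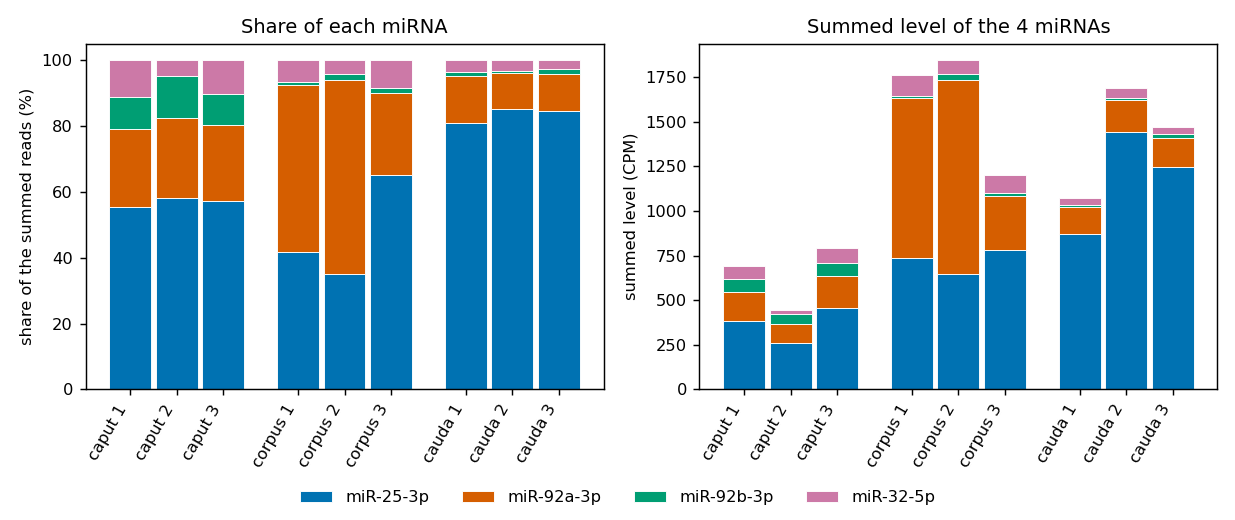
Stacked bars for each of the 9 libraries, with the share of the family's reads in % on the left and the summed level in CPM on the right. miR-25-3p (blue) takes 81.0% to 85.4% of the cauda bars and 55.4% to 58.2% of the caput bars, miR-92a-3p (orange) takes 50.7% and 58.9% in corpus replicates 1 and 2 but 25.1% in corpus replicate 3.

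A ratio of the reads of 2 members within a library is free of the library scaling, and the ratio of each other member to miR-92a-3p was therefore compared over the 3 segments. The test was made on the log2 ratio of CPM + 1, which retains a slight dependence on the scaling at low levels. The reads of miR-25-3p were 2.34, 2.41 and 2.49 times those of miR-92a-3p in caput libraries, 0.826, 0.596 and 2.59 times in corpus libraries and 5.70, 7.96 and 7.58 times in cauda libraries. The cauda was above the other segments, and corpus replicate 3 lay beside the caput libraries. The log2 ratio of CPM + 1 was 1.26 ± 0.05, 0.12 ± 1.11 and 2.80 ± 0.26 (SD, n = 3 each), and differed between the segments (exact permutation test of the F statistic over 280 divisions of the libraries, p = 0.0143, adjusted over 3 ratios p = 0.0214).

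The 2 most similar sequences were also separated along the duct. miR-92b-3p was present at 0.420, 0.539 and 0.403 times the level of miR-92a-3p in caput libraries, at 0.0155, 0.0314 and 0.0557 times in corpus libraries and at 0.0918, 0.0530 and 0.146 times in cauda libraries. The caput ratios lay above all others, whereas corpus and cauda overlapped slightly. The log2 ratio of CPM + 1 was -1.14 ± 0.23, -4.98 ± 0.91 and -3.40 ± 0.69 (SD, n = 3 each), and differed between the segments (exact permutation test, p = 0.00714, adjusted p = 0.0214). With the permutation held within replicate numbers, neither this difference nor that of miR-25-3p to miR-92a-3p stayed under the threshold. That restriction allows far fewer divisions, and a ratio alone at the smallest possible p would not have passed after adjustment.

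For miR-32-5p the log2 ratio of CPM + 1 to miR-92a-3p was between -2.33 and -1.1 in caput, -3.82 and -1.56 in corpus and -2.10 and -1.67 in cauda libraries. All 3 segments overlapped, and a difference was not detected (exact permutation test, p = 0.207, adjusted p = 0.207). Without corpus replicate 3 the adjusted p was 0.0214. The smallest p that the 280 divisions allow is 0.00357.

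**Figure D4:**
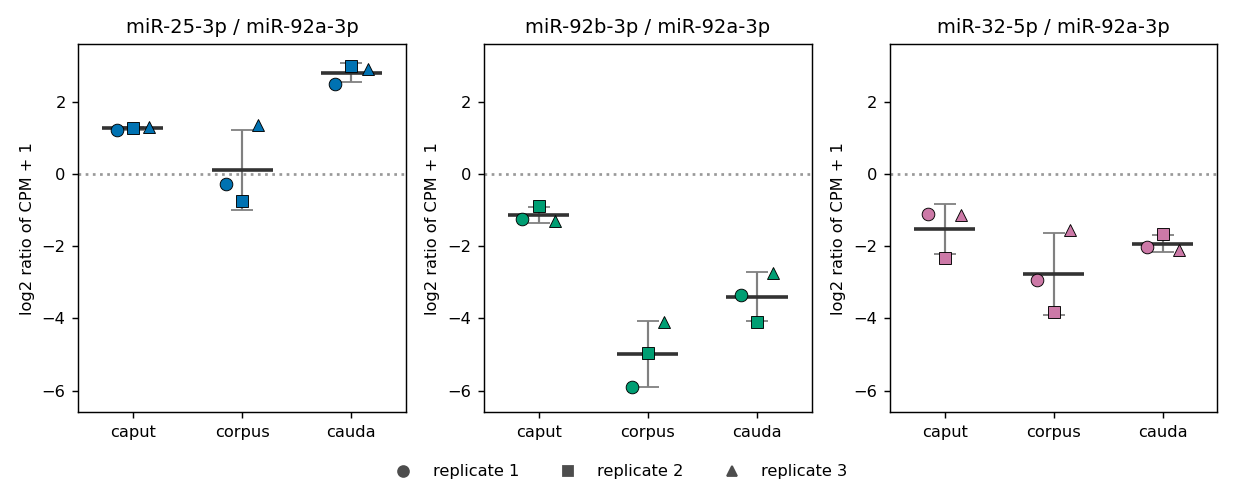
Log2 ratio of CPM + 1 of miR-25-3p, miR-92b-3p and miR-32-5p to miR-92a-3p (vertical axis) in each library by segment (horizontal axis), with the mean (line) and SD (bar, n = 3) and the shape giving the replicate. The dotted line marks equal levels; miR-25-3p goes from a mean of 1.26 in the caput to 2.80 in the cauda, miR-92b-3p is highest in the caput at a mean of -1.14, and the triangles of corpus replicate 3 are the highest of the corpus in all 3 panels.

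The hairpins of miR-25 and miR-92a each lie in a cluster with other miRNAs, of which 8 rows were in the table. miR-17, miR-20a, miR-93 and miR-106b share a seed of their own and are known as regulators of the cell cycle, and miR-19a and miR-19b share another. From caput to corpus 2 of these 8 rows were called, both higher, from corpus to cauda 1, and from caput to cauda 5, all higher, against 22.4%, 19% and 49% of all miRNAs. After TMM normalisation 1, 4 and 5 of the 8 were called, against 28.3%, 26.3% and 45.3%, and 2 of the 4 from corpus to cauda (miR-17-5p and miR-93-5p) were lower. The median change of the 8 rows was 0.69, 0.26 and 1.55 on the log2 scale, and 0.12, 0.16 and 0.90 after TMM normalisation. No row began with the names miR-106a, miR-18b or miR-20b, from the cluster on chromosome X.

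In the miR-25 cluster both arms of miR-106b rose from caput to cauda, as miR-25-3p did. miR-106b-3p went from 11.8 ± 4.42 to 30.8 ± 5.04 and 41.0 ± 11.4 CPM (SD, n = 3 each) and was called from caput to corpus (1.35, limma adjusted p = 0.033) and from caput to cauda (1.73, limma adjusted p = 0.0040). miR-106b-5p went from 32.8 ± 19.3 to 68.7 ± 19.1 and 74.6 ± 4.01 CPM and was called from caput to cauda (1.37, limma adjusted p = 0.029), and from caput to corpus without caput replicate 3 (1.62, limma adjusted p = 0.018) but not otherwise. miR-93-5p, in contrast, was highest in the corpus, with means of 415 ± 172, 713 ± 125 and 371 ± 97.1 CPM. Its corpus libraries were above all others, but neither the change from caput to corpus (0.87, limma adjusted p = 0.14) nor that from corpus to cauda (-0.95, limma adjusted p = 0.11) was called. The former was called without caput replicate 3 (1.13, limma adjusted p = 0.046). After TMM normalisation the change from corpus to cauda was called (-1.05, limma adjusted p = 0.0079), and neither the rise of miR-106b-3p from caput to corpus (0.81, under the fold limit) nor that of miR-106b-5p from caput to cauda (0.72, limma adjusted p = 0.082) was. The rise of miR-106b-3p from caput to corpus was also lost with a pseudocount of 10 CPM, with only the 6 libraries compared and in 6 of the 9 omissions of a single library, and that of miR-106b-5p from caput to cauda without caput replicate 2 (0.79) or any 1 cauda library (1.33 to 1.39).

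In the miR-17 to miR-92a-1 cluster no partner was called both higher from caput to corpus and lower from corpus to cauda, as miR-92a-3p was. miR-18a-5p rose by 2.13 from caput to corpus (limma adjusted p = 0.015), with means of 12.1 ± 5.2, 62.9 ± 38.0 and 144 ± 71.1 CPM (SD, n = 3 each) and a change of 3.39 from caput to cauda (limma adjusted p = 0.00020). Its rise from caput to corpus was no longer called without caput replicate 2 (1.83), corpus replicate 1 (1.96) or corpus replicate 3 (1.70). miR-19a-3p was at 18.5 ± 10.7, 22.1 ± 4.24 and 113 ± 64.3 CPM and rose from corpus to cauda (2.18, limma adjusted p = 0.0091; not called without cauda replicate 2, at 1.75) and from caput to cauda (2.63, limma adjusted p = 0.00094). miR-19b-3p, which also comes from the cluster on chromosome X, was at 212 ± 109, 268 ± 67.3 and 699 ± 338 CPM and was called from caput to cauda (1.8, limma adjusted p = 0.0069). Its change from corpus to cauda (1.3, limma adjusted p = 0.076) was called after TMM normalisation (1.2, limma adjusted p = 0.024), with only the 6 libraries compared (limma adjusted p = 0.023) and without caput replicate 2 (limma adjusted p = 0.019).

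miR-17-5p (88.6 ± 48.9, 107 ± 22.6 and 46.6 ± 10.9 CPM) and miR-20a-5p (61.6 ± 36.7, 75.9 ± 15.9 and 48.8 ± 4.14 CPM) were not called in any comparison in the fit to all 9 libraries with the deposited scaling. miR-17-5p was called lower from corpus to cauda after TMM normalisation (-1.28), and also with only the 6 libraries compared, without caput replicate 2 or without caput replicate 3 (-1.18 each, with limma adjusted p of 0.019, 0.020 and 0.046). From caput to cauda it was called lower after TMM normalisation (-1.42) and without caput replicate 2 (-1.27). Relative to its mean in the caput, miR-92a-3p stood at 5.03 in the corpus and 1.1 in the cauda, and miR-18a-5p at 5.18 and 11.9, whereas miR-17-5p, miR-19a-3p, miR-19b-3p and miR-20a-5p stood at 1.19 to 1.27 in the corpus and at 0.526 to 6.11 in the cauda. The small rises of these 4 from caput to corpus turned into values of -0.14 to -0.055 with TMM normalisation. The differences between these profiles were not tested.

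**Figure D5:**
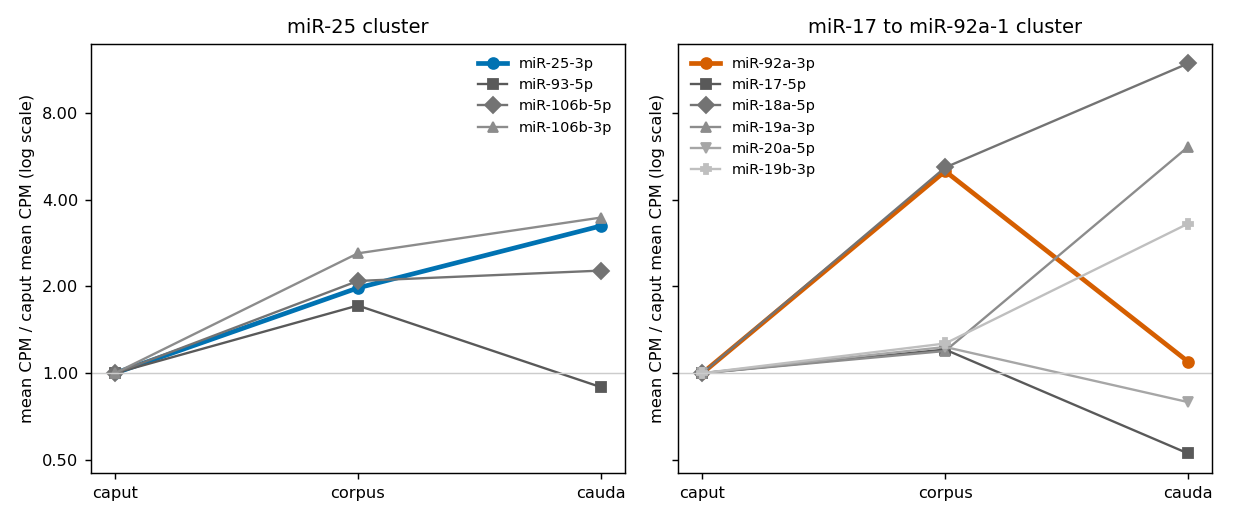
Mean CPM of each miRNA relative to its caput mean (vertical axis, log scale) by segment (horizontal axis), with the miR-25 cluster on the left and the miR-17 to miR-92a-1 cluster on the right. Thick lines are miR-25-3p, which reaches 3.24 in the cauda, and miR-92a-3p, which stands at 5.03 in the corpus and 1.1 in the cauda; miR-18a-5p reaches 11.9 and miR-17-5p 0.526 in the cauda.

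Over the 9 libraries the members were not alike in log2(CPM + 1). Pearson's r was 0.67 between miR-92a-3p and miR-32-5p, 0.17 between miR-92a-3p and miR-25-3p, -0.25 between miR-92a-3p and miR-92b-3p, and -0.83 between miR-25-3p and miR-92b-3p. These values describe the 9 libraries, which form 3 groups and share their scaling, and have no test.

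The 3 rows outside the family most like each member were named by the same r. For miR-25-3p they were miR-152-3p (0.970), miR-199b-3p and miR-199a-3p (0.969 each), which went from means of 64.4, 1360 and 1375 CPM in the caput to 301, 4743 and 4774 CPM in the cauda. The miR-199b-3p and miR-199a-3p rows were nearly equal in mean level in each segment and may share reads. For miR-92a-3p they were miR-1839-3p (0.934), miR-598-3p (0.906) and miR-324-3p (0.881), with corpus means of only 70.6, 24.4 and 19.6 CPM. For miR-92b-3p they were miR-671-3p (0.938), miR-467d-5p and miR-148a-5p (0.911 each), which fell from 20.6, 34.5 and 241 CPM in the caput to 3.58, 6.48 and 55.5 CPM in the cauda. For miR-32-5p they were miR-20a-5p (0.941), miR-17-5p (0.927) and miR-141-5p (0.880).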

How the data were processed

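Small RNA from epididymosomes was sequenced in 9 libraries, 3 each from caput, corpus and cauda, grouped by their labels. The authors trimmed and screened the reads, assigned them to known mature miRNAs with miRDeep2 (quantifier module) and scaled them to library size. The deposited unit is therefore CPM. CASAVA 1.8.2 and Bowtie 1.1.1 are named in the submitters' processing notes. The genome build and miRBase release are not given in the sources used here.

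In all libraries 100% of values were whole multiples of 1 read (within 0.01 read), from which the library totals were taken. Intervals cover counting error only. Segments were compared with limma 3.58 (R 4.3; lmFit, then eBayes with trend) on log2(CPM + 1) in 1 fit to all 9 libraries without covariates. Adjustment (Benjamini-Hochberg) covered the miRNAs whose mean reached 10 CPM in either segment compared. The script was tested on simulated data. Ratios to miR-92a-3p were tested by exact permutation of the F statistic over all segments together. Family rows were named by their prefix, the cluster partners and cell type lists by row name, and the nearest rows by r. Members and lists were chosen with earlier results of these data known. Alternatives were TMM normalisation, limma-voom, other filters and pseudocounts, no fold limit, the replicate number as a block, only the 6 libraries compared, and single libraries left out. Sequences and coordinates are from RefSeq (GRCm38.p6) and GENCODE. Python 3.11, numpy 2.4, pandas 2.3, scipy 1.17 and matplotlib 3.10 were used.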

Additional observations from a re-analysis of the deposited data

How the results depend on the processing

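Counting the 4 family members, the numbers differentially accumulated (2, 1 and 2 from caput to corpus, corpus to cauda and caput to cauda) were unchanged with limma-voom on the recovered reads, no filter, a mean of at least 50 CPM, pseudocounts of 0.5 and 10 CPM, no limit on the fold and the replicate block. At a mean of at least 50 CPM only 3 members were tested from corpus to cauda, since miR-92b-3p did not reach that filter. From corpus to cauda the number was 2 with TMM normalisation and with only the 6 libraries compared, miR-32-5p being added. Leaving out single libraries it ranged from 1 to 3 from caput to corpus (1 without corpus replicate 1 or 3), from 0 to 2 from corpus to cauda (0 by limma without corpus replicate 2, where 2 had an unadjusted p under 0.05, and 2 without caput replicate 2), and stayed at 2 from caput to cauda. Over all miRNAs the numbers went from 72, 65 and 171 to 46 to 102, 32 to 83 and 132 to 202 when single libraries were left out, with 46 without corpus replicate 1 in the first comparison and 41, 32, 38 and 39 without corpus replicate 1, corpus replicate 2, cauda replicate 1 and cauda replicate 2 in the second. From caput to cauda 95 were called at a mean of at least 50 CPM, where fewer miRNAs were tested.

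Directions turned only for changes that had not been called. With TMM normalisation the change from caput to corpus was -0.14 for miR-17-5p, -0.087 for miR-19a-3p, -0.080 for miR-19b-3p and -0.055 for miR-20a-5p, and that from caput to cauda was -0.51 for miR-92a-3p. With single libraries left out the first 4 ranged from -0.088 to 0.82, -0.17 to 0.79, -0.062 to 0.79 and -0.11 to 0.92 (below 0 without caput replicate 2), and miR-106b-5p from corpus to cauda from -0.017 (without corpus replicate 2) to 0.36. From caput to cauda the range was -0.063 to 0.32 for miR-92a-3p, -0.87 to 0.10 for miR-32-5p, -0.71 to 0.32 for miR-20a-5p and -0.48 to 0.17 for miR-93-5p, lowest without caput replicate 2 and highest without caput replicate 3 each time. The cause was not tested.

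The sources used here do not say whether libraries of the same replicate number shared animals, and the values did not settle it. Deviations from the segment means correlated at -0.21 to 0.41 between libraries of the same number. A library correlated best with its own number in 10 of 18 cases. With the replicate block 83, 73 and 180 miRNAs were called in the 3 comparisons, and no call of a family member changed. For the ratios permuted within replicate numbers neither miR-25-3p nor miR-92b-3p to miR-92a-3p stayed under 0.05, with an adjusted p of 0.0833 for both, and that of miR-32-5p was 0.222. Permutation within replicate numbers allows far fewer divisions, so a ratio alone at the smallest possible p would still have stayed above 0.05 after adjustment. Without that restriction and with single libraries left out, the permutation adjusted p ranged from 0.00536 to 0.0429 for miR-25-3p. It ranged from 0.00536 to 0.0321 for miR-92b-3p and from 0.0214 to 0.493 for miR-32-5p.

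The planned quasi-likelihood test on recovered reads was not run, since a preset rule of at least 100 low values per library was not met (at most 82). All values were nevertheless whole multiples of 1 read, and limma-voom was run on the recovered reads. No ratio of the 2 arms of a family hairpin was computed, since both arms of 1 hairpin were not among the rows used. The depth limits miR-92b-3p most, at 21 to 141 reads per cauda library.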

Other observations

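The corpus maximum of miR-92a-3p was set beside the other rows after its values had been seen. Of the 358 rows, 19 had all 3 corpus libraries above the other 6, and among these the ratio of the corpus mean to the higher of the other segment means was 5.23 for miR-3535 and 4.58 for miR-92a-3p, the 2 highest. miR-3535 had means of 29.0, 349 and 66.8 CPM from caput to cauda. The others included miR-3470b (3.39), miR-135b-5p (2.68), miR-210-3p (1.96), a miRNA known for its induction by hypoxia, and miR-93-5p (1.72) of the miR-25 cluster. Rows typical of epithelium were also among them, namely miR-141-3p (1.62) and miR-200a-3p (1.32), as were miR-1839-3p (2.58) and miR-598-3p (2.57), the rows nearest to miR-92a-3p over the 9 libraries. These ratios are descriptions with no test.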
